A study of Bos taurus with 6 samples.

Results

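Integrins are the cell surface receptors through which cells hold to the matrix around them, and laminins and nidogens are proteins of the basement membrane, the thin sheet of matrix under epithelia and around muscle and vessels. Forebrain, liver and rumen (a stomach chamber of ruminants that is lined by stratified epithelium) of bovine fetuses were compared for these genes. They were chosen by symbol from a table of 14179 gene symbols: every symbol starting with ITGA and a digit or 1 of the letters D, E, L, M, V and X, the symbols ITGB1 to ITGB8, the laminin chain symbols (LAMA, LAMB or LAMC and a digit) and NID1 and NID2. In all 28 symbols matched, namely 13 integrin alpha chains, 8 integrin beta chains, 5 laminin chains and 2 nidogens, and the RefSeq gene table of assembly ARS-UCD2.0 listed all 28. No measured value entered this rule, but it was chosen with earlier results of these data known. Other chains of these families, such as LAMA5 and ITGA1, were not analysed here. After a filter on low counts 26 of the 28 were tested. The others were ITGAD, with 23 counts, all from liver, and ITGB6, with 22 counts, all from rumen.

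An integrin works as a pair of 1 alpha and 1 beta chain, and the pair sets which matrix protein or cell surface ligand it binds. ITGB1 joins with many alpha chains, ITGB2 is the chain of leukocyte integrins, ITGA2B with ITGB3 forms the fibrinogen receptor of platelets, and ITGA6 with ITGB4 anchors basal epithelial cells at hemidesmosomes. A laminin is a trimer of an alpha, a beta and a gamma chain that joins into a network, and nidogens link this network to collagen IV.

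The 6 libraries were made from poly(A) RNA of wild-type male Holstein fetuses at 90 days, without treatment, with 2 libraries for each tissue. They are called Forebrain 1 and 2, Liver 1 and 2, and Rumen 1 and 2 here. The fetuses were taken at a slaughterhouse and included 2 males, and nothing in the labels says which fetus gave which library. The p-values thus measure only how much these samples vary, part of which may be technical, and tissues may share a fetus. Whole tissue was used, so fewer cells of a type and less RNA per cell cannot be told apart.

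Library depth ran from 10271024 to 18528958 counts. The level of a gene is its CPM, the count after scaling to a common library total with TMM factors, and 3 counts in 1 library correspond to 0.193 to 0.244 CPM. Levels were not divided by transcript length, so a level is compared between libraries for the same gene, not between genes. Marker genes were highest in the tissue they stand for: the summed level of 5 neuronal genes was 5833 and 5682 CPM in forebrain and at most 226 CPM elsewhere, that of 5 hepatocyte genes 172938 and 116807 CPM in liver and at most 134 CPM elsewhere, and that of 5 smooth muscle genes 5897 and 5864 CPM in rumen and at most 82.8 CPM elsewhere. The 2 liver libraries differed from each other far more than those of the other tissues. The log2 ratio of the pair had an SD across well-counted genes of 0.942 in liver, against 0.248 in forebrain and 0.211 in rumen. Values of both liver libraries are therefore given for the integrins, laminins and nidogens, and the genes on which they disagree are described together near the end.

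As a group, integrins, laminins and nidogens were scarcest in forebrain. Their summed counts made up 0.0432% and 0.0385% of all counts in the forebrain libraries. The liver libraries gave 0.151% and 0.131%, and the rumen libraries 0.188% and 0.217%. These shares were taken from raw counts, without TMM factors or transcript lengths. In Liver 1, ITGB3 gave 8271 and ITGA2B 3047 of the 25071 member counts. In Liver 2 they gave 3665 and 7600 of 24257. By mean CPM, forebrain was the lowest of the 3 tissues for 21 of the 26 tested members, against 38.3% of all tested genes. Rumen was the highest for 14, against 24.7% of all tested genes, and forebrain for 2, against 35.4%. Liver was the highest for 10, a share near the 39.9% of all tested genes.

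**Figure D1:**
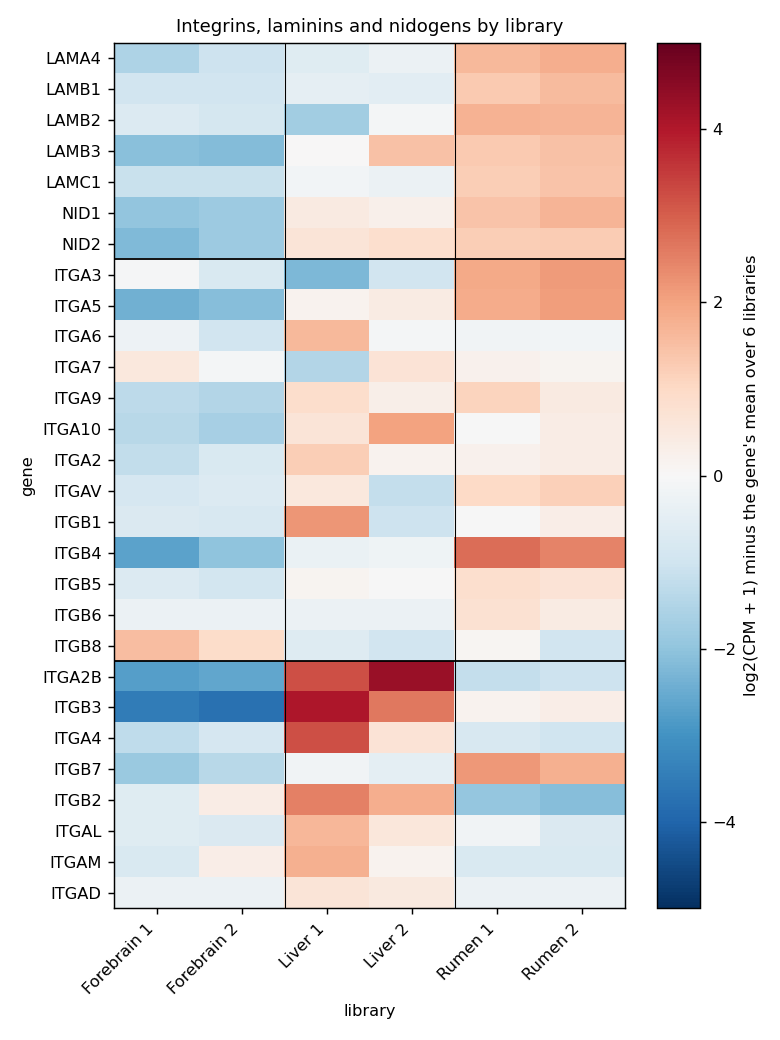
Level of the 28 genes in each of the 6 libraries, as log2(CPM + 1) minus the mean of that gene over the libraries, with laminins and nidogens at the top, other integrins in the middle and integrins of blood cells and platelets at the bottom. Laminins and nidogens are high in both rumen libraries and low in both forebrain libraries, whereas ITGA2B and ITGB3 are high in both liver libraries.

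Each pair of tissues was compared with edgeR's quasi-likelihood test over 11478 genes, with Benjamini-Hochberg adjustment and a threshold of 0.05. In rumen against forebrain, 17 of the 26 tested members were higher, where 20.3% of all tested genes were, and 1 was lower, where 21.5% of all genes were. The median log2 fold change was 2.45 over the members and -0.01 over all genes. In rumen against liver, 10 were higher and 5 lower, where the shares of all genes were 21.2% and 21.8%, and the medians were 0.48 and -0.06. In liver against forebrain, 17 were higher and 1 lower, where the shares of all genes were 30.5% and 27.3%, and the medians were 2.24 and 0.14. The 3 comparisons share libraries, so their counts are not independent of each other.

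These counts moved with single libraries. The number higher in rumen than forebrain was 11 without Forebrain 2, and the number lower was 0 without Forebrain 2 or Rumen 2 and 2 without either liver library. The number lower in rumen than liver was 9 without Liver 2 and 3 without either rumen library. The number higher in liver than forebrain was 9 without either forebrain library, and the number lower was 0 without Forebrain 1 and 4 without Liver 2. A fit with 1 library fewer also has fewer degrees of freedom.

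**Figure D2:**
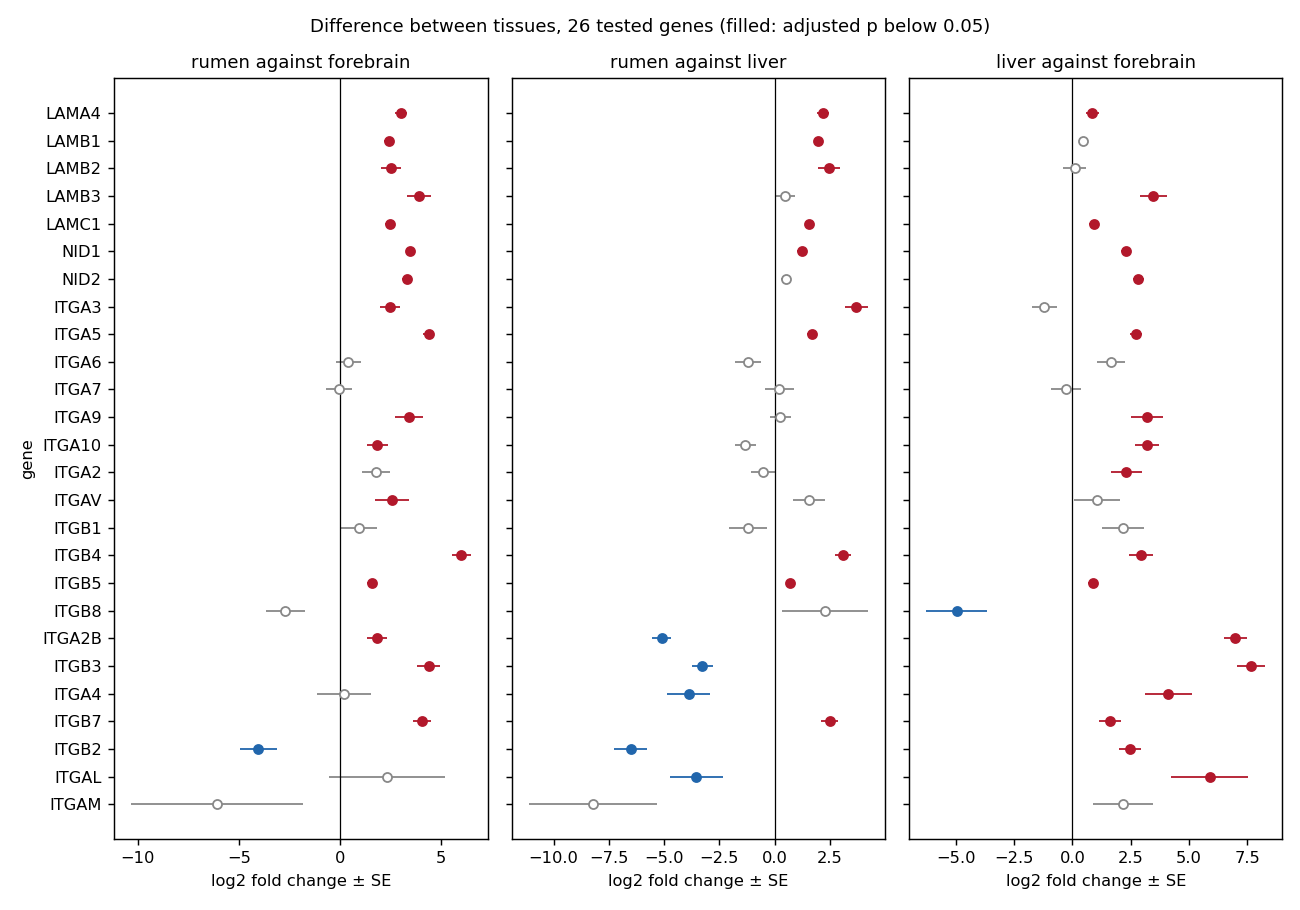
Log2 fold change with its standard error for the 26 tested genes in the 3 comparisons, with filled points for adjusted p below 0.05 (red higher, blue lower in the tissue named first) and open points for the rest. In rumen against forebrain the 17 higher genes include all 5 laminin chains and both nidogens, and the lower gene is ITGB2.

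All 7 laminin and nidogen genes were higher in rumen than in forebrain, and 5 of the 7 were also higher in rumen than in liver. Of all tested genes 20.3% and 21.2% were. LAMA4, an alpha chain of laminins around vessels and muscle, stood at 19.8 and 29.2 CPM in forebrain (library 1 first, here and below), 39.5 and 49.1 CPM in liver, and 186 and 216 CPM in rumen. Both rumen libraries lay far above the other 4. The fold change was 8.20 against forebrain (log2 fold change 3.04 ± 0.28 (SE), adjusted p = 0.000345) and 4.54 against liver (2.18 ± 0.27, adjusted p = 0.00104). Liver was 1.80-fold above forebrain (adjusted p = 0.0318), a call lost in 5 of 15 alternatives with adjusted p up to 0.219. LAMC1, the gamma chain of most laminins, was at 27.2 and 26.5 CPM in forebrain, 54.1 and 47.7 CPM in liver and 139.7 and 162 CPM in rumen. The tissues were ordered forebrain, liver, rumen without overlap, and each step passed the test, 1.90-fold from forebrain to liver (adjusted p = 0.0105) and 2.96-fold from liver to rumen (adjusted p = 0.00162). The smaller step was lost without either forebrain library and when those 2 tissues were fitted alone (adjusted p up to 0.0917).

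The beta chains of the laminins differed in how liver stood to forebrain. LAMB1, the broadly used beta chain, was at 58.0 and 58.2 CPM in forebrain, 81.5 and 78.5 CPM in liver and 285 and 337 CPM in rumen. It was 5.35-fold higher in rumen than in forebrain (adjusted p = 0.000263) and 3.89-fold higher than in liver (adjusted p = 0.000508). Liver against forebrain did not pass, at 1.38-fold (adjusted p = 0.0859), but did without either liver library (lowest adjusted p 0.0283). LAMB2, a beta chain of muscle, vessel and synaptic basement membranes, was at 30.8 and 26.7 CPM in forebrain, 14.2 and 47.1 CPM in liver, and 170.2 and 165 CPM in rumen. Rumen was above both other tissues, 5.82-fold against forebrain (adjusted p = 0.00774) and 5.43-fold against liver (adjusted p = 0.00869), while forebrain lay between the 2 liver libraries. Its call against forebrain was lost without either forebrain library or Rumen 1, and its call against liver without either rumen library (highest adjusted p 0.0727 and 0.0564).

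LAMB3, the beta chain of the laminin that hemidesmosomes bind under stratified epithelia, had another profile. It was at 2.76 and 2.60 CPM in forebrain, 15.6 and 43.7 CPM in liver, and 39.1 and 43.6 CPM in rumen. Forebrain stood far below both other tissues, with a fold of 15.4 for rumen (log2 fold change 3.94 ± 0.58 (SE), adjusted p = 0.00232) and 11.1 for liver (3.47 ± 0.58, adjusted p = 0.00252). Rumen and liver were not separated by the test (adjusted p = 0.442), and Liver 2 lay as high as Rumen 2. Without Liver 2 rumen was higher than liver (adjusted p = 0.000408).

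The ratio of 2 genes within a library can be followed across libraries without transcript lengths. The ratio of LAMB1 to LAMC1 counts was 2.13 and 2.20 in forebrain and close to it in rumen, at 2.04 and 2.08, and lower in liver, at 1.51 and 1.65. It thus differed little between forebrain and rumen while both genes differed more than 5-fold. The ratio of LAMB3 to LAMC1 was lowest in forebrain (0.102 and 0.0981), and Liver 2, at 0.918, stood above Liver 1 (0.289) and rumen (0.280 and 0.269). No test of these ratios was run.

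Both nidogens followed the order forebrain, liver, rumen. NID1, nidogen 1, was at 22.0 and 24.8 CPM in forebrain, 124 and 106 CPM in liver, and 241 and 291 CPM in rumen. It was 11.4-fold higher in rumen than in forebrain (adjusted p = 0.000125), 4.91-fold higher in liver than in forebrain (adjusted p = 0.000252) and 2.31-fold higher in rumen than in liver (adjusted p = 0.00473, or 0.0555 without Rumen 2). NID2, nidogen 2, was at 9.84 and 13.2 CPM in forebrain, 77.2 and 87.6 CPM in liver, and 116 and 117 CPM in rumen. It was 10.1-fold higher in rumen (adjusted p = 0.000187) and 7.13-fold higher in liver (adjusted p = 0.000160) than in forebrain, and the step from liver to rumen, 1.41-fold, did not pass (adjusted p = 0.121, or 0.0156 without Liver 2). The summed level of 5 fibroblast markers was 143 and 189 CPM in forebrain, 849 and 666 CPM in liver, and 13045 and 13756 CPM in rumen. Most of this sum was COL3A1, COL1A1 and DCN. PDGFRA, another gene of the list, was 17.5-fold lower in liver than in forebrain (adjusted p = 6.56e-05) and did not pass in rumen against forebrain, and LUM did not pass in liver against forebrain (adjusted p = 0.517). Endothelial markers, 6 genes, summed to 100.3 and 124 CPM in forebrain, 921 and 423 CPM in liver, and 257 and 215 CPM in rumen. The largest part in liver was VWF, at 502 and 166 CPM. KDR, TEK and VWF were called higher in rumen than in forebrain, while PECAM1, CDH5 and TIE1 were not called. No gene of either list was at 0 in both libraries of any tissue, and the part of these cell types in the laminin and nidogen levels was not tested.

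**Figure D3:**
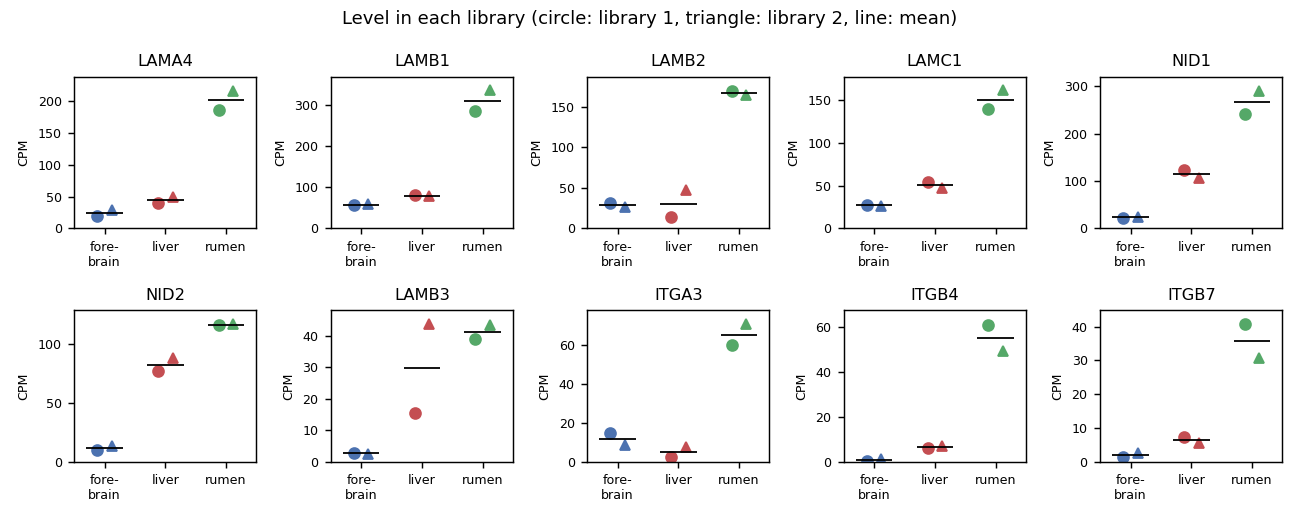
CPM of the laminins, the nidogens and 3 integrin chains in each library (circle library 1, triangle library 2, line the tissue mean, linear axis from 0). Both rumen libraries lie above all others for LAMA4, LAMB1, LAMB2, LAMC1, NID1, NID2, ITGA3, ITGB4 and ITGB7, and for LAMB3 Liver 2, at 43.7 CPM, reaches the rumen level.

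Among integrins of epithelia, ITGB4 and ITGA3 were highest in rumen. ITGB4, the hemidesmosome beta chain, stood at 0.407 and 1.23 CPM in forebrain (22 counts in all), 6.25 and 6.81 CPM in liver, and 61.1 and 49.4 CPM in rumen. The 3 tissues did not overlap, and rumen was 65.3-fold above forebrain (log2 fold change 6.03 ± 0.47 (SE), adjusted p = 0.000195) and 8.44-fold above liver (3.08 ± 0.36, adjusted p = 0.000786). Liver was 7.73-fold above forebrain (adjusted p = 0.00320). ITGA6, the alpha chain that pairs with ITGB4 and also with ITGB1, was at 13.5 and 7.79 CPM in forebrain, 51.7 and 15.2 CPM in liver, and 14.1 and 14.4 CPM in rumen. Rumen and forebrain were 1.35-fold apart without a call (adjusted p = 0.619), and the highest level was in Liver 1. The difference between the changes of ITGA6 and ITGB4 was not tested.

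ITGA3, a laminin receptor chain of epithelia, was at 14.7 and 8.73 CPM in forebrain, 2.46 and 7.51 CPM in liver, and 59.9 and 70.8 CPM in rumen. It was 5.59-fold higher in rumen than in forebrain (adjusted p = 0.00681, or up to 0.0711 without Forebrain 2 or Rumen 2) and 12.9-fold higher than in liver (adjusted p = 0.00181). ITGB6, an epithelial chain that binds latent TGF-beta, had 14 and 8 counts in Rumen 1 and 2 and none in the other 4 libraries. Its pooled rumen level was 7.41-fold the level that 3 counts over both forebrain libraries would give, and 8.22-fold that of 3 counts over both liver libraries. These ratios leave out the counting error of the 22 rumen counts. The basal epithelial markers KRT5, KRT14, KRT15, TP63 and PERP summed to 7.81 and 6.35 CPM in forebrain, 85.6 and 178 CPM in liver, and 9197 and 7471 CPM in rumen. KRT14, KRT15 and TP63 were at 0 in both forebrain libraries and TP63 in both liver libraries. What these cells contribute to the integrin levels was not tested.

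ITGB7, a beta chain known from lymphocytes that home to the gut, was also highest in rumen. It was at 1.54 and 2.60 CPM in forebrain, 7.29 and 5.59 CPM in liver, and 40.7 and 30.7 CPM in rumen. Rumen lay 17.0-fold above forebrain (log2 fold change 4.09 ± 0.43 (SE), adjusted p = 0.000603) and 5.56-fold above liver (2.47 ± 0.37, adjusted p = 0.00240), with no overlap. Liver was 3.06-fold above forebrain (adjusted p = 0.0236), a call lost in 4 of 15 alternatives, those without either forebrain library among them (adjusted p up to 0.154). Of the 7 leukocyte markers none had its highest mean in rumen, and the part of leukocytes in the ITGB7 level was not tested. The summed level of 7 leukocyte genes was 88.2 and 138 CPM in forebrain, 360.0 and 163 CPM in liver, and 46.5 and 57.8 CPM in rumen. Most of the forebrain sum was CORO1A (44.8 and 62.5 CPM) and LAPTM5 (35.1 and 63.6 CPM). Of 4 lymphocyte genes in the table (of 5 in the list), the sum was 0.163 and 0.577 CPM in forebrain, 7.00 and 0.706 CPM in liver, and 0.918 and 1.25 CPM in rumen, where IL7R was at 0. CD3E, of the same list, had 8 and 7 counts in rumen, 2 and 7 in forebrain and 34 and 2 in liver. ITGA4, the alpha chain that pairs with ITGB7 on lymphocytes, was at 1.99 and 1.64 CPM in rumen, and ITGAE, another partner of ITGB7, was not analysed here. RARG, the gene next to ITGB7 in RefSeq order, had a mean of 2.80 CPM in forebrain, 4.44 CPM in liver and 79.6 CPM in rumen, and whether the 2 genes share reads was not tested.

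Chains of receptors for fibronectin and other RGD ligands differed in profile. ITGA5, the alpha chain of the classical fibronectin receptor, was at 6.10 and 7.72 CPM in forebrain, 42.0 and 50.1 CPM in liver, and 136 and 160.5 CPM in rumen. Each tissue stood apart from the next, with rumen 21.3-fold above forebrain (log2 fold change 4.42 ± 0.28 (SE), adjusted p = 0.000106), rumen 3.21-fold above liver (adjusted p = 0.00184) and liver 6.64-fold above forebrain (adjusted p = 0.000240). FN1, fibronectin itself, a partner gene named here after its values were seen, was at 85.1 and 97.2 CPM in forebrain, 642 and 855 CPM in liver, and 971 and 1115 CPM in rumen. It was 11.4-fold higher in rumen than in forebrain (adjusted p = 0.000156), while rumen against liver did not pass (adjusted p = 0.142).

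ITGB5, a beta partner of ITGAV, showed smaller steps in the same order. It was at 66.1 and 56.0 CPM in forebrain, 117 and 107 CPM in liver, and 192 and 174 CPM in rumen, so that rumen was above forebrain by 1.58 ± 0.21 (SE) on the log2 scale (adjusted p = 0.00143) and 1.63-fold above liver (adjusted p = 0.0300). The call against liver was lost without either forebrain or either rumen library and when only those 2 tissues were fitted (adjusted p up to 0.183). Liver was 1.84-fold above forebrain (adjusted p = 0.0102), a call lost without either forebrain library. ITGAV, the common alpha chain of RGD receptors, was at 0.976 and 1.15 CPM in forebrain, 4.09 and 0.514 CPM in liver, and 6.05 and 6.95 CPM in rumen. Rumen was 6.03-fold above forebrain (adjusted p = 0.0473), a call lost in 8 of 15 alternatives with adjusted p up to 0.213. Against liver it did not pass (adjusted p = 0.136).

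ITGB1, the shared beta chain, passed in none of the 3 comparisons, although liver against forebrain did with DESeq2 (adjusted p = 0.0252). It was at 31.2 and 28.9 CPM in forebrain, 245 and 25.0 CPM in liver, and 50.9 and 65.6 CPM in rumen. Both rumen libraries were above both forebrain libraries, by 1.94-fold (adjusted p = 0.421). Liver 1 was the highest of the 6 libraries and Liver 2 the lowest. Without Liver 1, rumen was above liver (log2 fold change 1.22, adjusted p = 0.000542), and without Liver 2 it was below (adjusted p = 4.04e-07), so the direction against liver rests on which liver library is used. The rise from forebrain to rumen passed without either liver library and when those tissues were fitted alone (lowest adjusted p 0.000282).

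**Figure D4:**
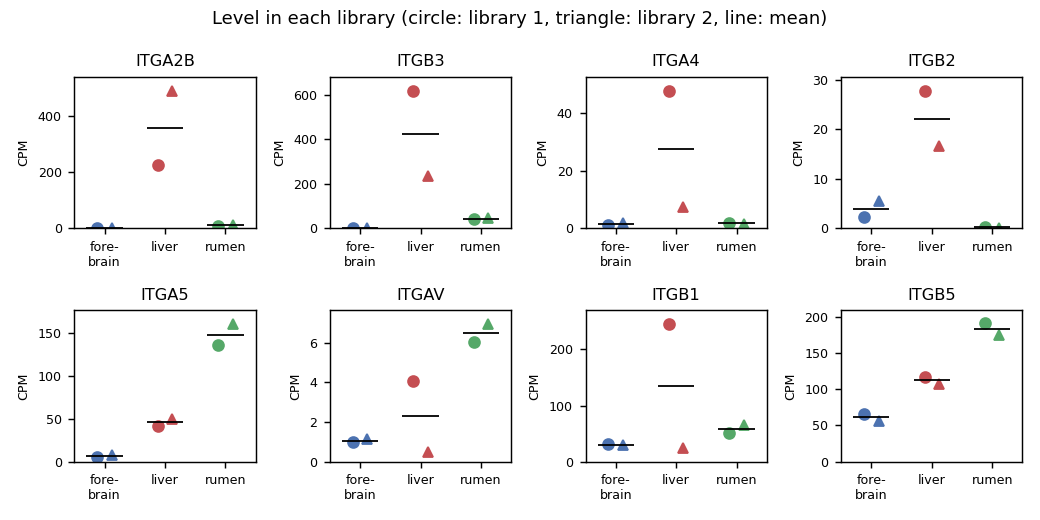
CPM of 8 integrin chains in each library (circle library 1, triangle library 2, line the tissue mean, linear axis from 0). ITGA5 and ITGB5 separate all 3 tissues, ITGA2B, ITGB3, ITGA4 and ITGB2 are highest in the 2 liver libraries, and for ITGB1 the liver libraries, at 245 and 25.0 CPM, enclose all the others.

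Integrin chains of platelets were highest in liver, which makes blood cells at this stage of development. ITGA2B, the alpha chain of the platelet fibrinogen receptor, was at 2.60 and 3.03 CPM in forebrain, 227 and 488 CPM in liver, and 10.3 ± 1.02 CPM (SD, n = 2) in rumen. Liver was 126-fold above forebrain (log2 fold change 6.98 ± 0.49 (SE), adjusted p = 6.50e-05) and rumen 34.7-fold below liver (-5.12 ± 0.44, adjusted p = 0.000249). ITGB3, its beta chain, which also pairs with ITGAV in vessels and other cells, was at 2.36 and 1.80 CPM in forebrain, 616 and 235 CPM in liver, and 41.7 and 46.4 CPM in rumen. Liver was 205-fold above forebrain (7.68 ± 0.61, adjusted p = 0.000100) and rumen 9.65-fold below liver (-3.27 ± 0.46, adjusted p = 0.00183).

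Between forebrain and rumen the 2 platelet chains differed as well. ITGB3 was 21.2-fold higher in rumen (adjusted p = 0.00140), and ITGA2B 3.63-fold higher (adjusted p = 0.0216), the latter call being lost in 5 of 15 alternatives (adjusted p up to 0.163). The ratio of ITGA2B to ITGB3 counts was lowest in rumen, at 0.229 and 0.237. Forebrain gave 1.10 and 1.68, and liver 0.368 and 2.07, so that the liver libraries stood on opposite sides of the forebrain values. Of the 7 megakaryocyte and platelet markers fixed for this check, PF4 and TUBB1 were in the table, and their sum was 2.52 and 2.17 CPM in forebrain, 1299 and 571 CPM in liver, and 5.89 and 5.70 CPM in rumen. Neither was at 0 in both libraries of a tissue, and the part of these cells in the integrin levels was not tested.

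Leukocyte integrins were also highest in liver. ITGB2, the beta chain of the leukocyte integrins, was at 2.28 and 5.48 CPM in forebrain, 27.7 and 16.6 CPM in liver, and 0.306 and 0.156 CPM in rumen (4 and 2 counts). Rumen was 91.6-fold below liver (log2 fold change -6.52 ± 0.75 (SE), adjusted p = 0.000390) and 16.4-fold below forebrain (-4.03 ± 0.92, adjusted p = 0.00932), although the second call was lost without Forebrain 2 or either rumen library (adjusted p up to 0.0964). Liver was 5.60-fold above forebrain (adjusted p = 0.00289). ITGB2 was the member called lower in rumen than in forebrain. PTPRC, the pan-leukocyte surface protein CD45, was low in rumen too, at 0.0765 CPM in Rumen 1 and 0 in Rumen 2. It was at 1.14 and 2.17 CPM in forebrain and 15.3 and 13.4 CPM in liver. Every gene of the leukocyte list was called lower in rumen than in liver. Against forebrain, CORO1A and SPI1 were called lower in rumen like PTPRC, but CD53, LCP1, LAPTM5 and CYBB were not called. CYBB had a mean of 1.56 CPM in forebrain and 1.82 CPM in rumen. Macrophage markers, 5 genes in the table, summed to 47.6 and 70.9 CPM in forebrain, 675 and 306 CPM in liver and 25.6 and 25.5 CPM in rumen. Of these, CSF1R and C1QB were called lower in rumen than in forebrain, and CD68 and C1QA were not called. CD163, with 2 and 2 counts in forebrain, went the other way, 13.4-fold higher in rumen (adjusted p = 0.00842). The part of macrophages and other leukocytes in the ITGB2 level was not tested.

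The alpha partners of ITGB2 were sparse. ITGAL, the alpha chain of the lymphocyte integrin LFA1, had 57 and 23 counts in the liver libraries, while rumen gave 6 and 0 and forebrain 1 and 0. It was higher in liver than in forebrain (adjusted p = 0.0161), with a ratio of pooled levels of 72.1 and an exact 95% interval from counting alone of 12.6 to 2884, and the call was lost without either forebrain library (adjusted p up to 0.114). Rumen was 11.7-fold below liver (adjusted p = 0.0424), a call lost in 9 of 15 alternatives with adjusted p up to 0.203. ITGAM, the myeloid alpha chain CD11b, had 65 and 14 counts in liver, 0 and 16 in forebrain and none in rumen, and passed in no comparison (adjusted p = 0.0637 for rumen against liver). Rumen against liver did pass in 4 of 15 alternatives (lowest adjusted p 0.00110) and liver against forebrain without Liver 2 (adjusted p = 0.00852). ITGAD, the related chain CD11d, had 12 and 11 counts in liver and none elsewhere. ITGA4, a chain of lymphocytes and blood progenitors that binds VCAM1 and fibronectin, was at 47.6 and 7.32 CPM in liver, 1.14 and 1.95 CPM in forebrain and 1.99 and 1.64 CPM in rumen. Liver was 17.4-fold above forebrain (adjusted p = 0.0121) and rumen 14.9-fold below liver (adjusted p = 0.0189), with both liver libraries above the other 4. These calls were lost with limma voom and without either forebrain library in the first case or either rumen library in the second (adjusted p up to 0.126).

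Collagen and tenascin receptor chains had mixed profiles. ITGA10, a collagen receptor chain of cartilage and mesenchyme, was at 6.91 and 5.63 CPM in forebrain, 31.6 and 83.3 CPM in liver, and 19.4 and 26.1 CPM in rumen. Forebrain was lowest, 9.19-fold below liver (adjusted p = 0.00240) and 3.64-fold below rumen (adjusted p = 0.0296, lost in 5 of 15 alternatives), and rumen against liver did not pass (adjusted p = 0.0588). ITGA2, the collagen receptor chain of platelets and epithelia, was at 0.976 and 1.73 CPM in forebrain, 9.75 and 4.17 CPM in liver, and 4.44 and 5.07 CPM in rumen. With all libraries only liver against forebrain was called (5.00-fold, adjusted p = 0.0206, lost without either forebrain library). Rumen against forebrain did not pass (adjusted p = 0.0764). It did in 3 of 15 alternatives, without either liver library and with only those 2 tissues fitted. ITGA9, which binds tenascin and other ligands, was at 0.650 and 0.505 CPM in forebrain, 6.70 and 4.11 CPM in liver, and 8.04 and 4.68 CPM in rumen. Forebrain had 15 counts in all and lay below both other tissues, 10.9-fold below rumen (adjusted p = 0.00721) and 9.21-fold below liver (adjusted p = 0.00703), calls that were lost without either forebrain library and, against rumen, without Rumen 1 (adjusted p up to 0.0859).

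The members with their highest mean in forebrain were ITGB8 and ITGA7. ITGB8, a chain of neural progenitors and glia that activates TGF-beta, had 56 and 36 counts in the forebrain libraries, while liver gave 3 and 0 and rumen 14 and 0. It was lower in liver than in forebrain (adjusted p = 0.0111), with a ratio of pooled levels of 34.0 in favour of forebrain (exact 95% interval from counting alone 11.3 to 168), a call lost without Forebrain 1 and with edgeR's earlier method. Rumen against forebrain missed the threshold (log2 fold change -2.69 ± 0.98 (SE), adjusted p = 0.0543). It passed in 6 of 15 alternatives, and all rumen counts came from Rumen 1. ITGA7, the laminin receptor chain of muscle, was at 33.9 and 21.9 CPM in forebrain, 7.89 and 38.4 CPM in liver, and 27.4 and 26.2 CPM in rumen. No comparison of it passed with all libraries (lowest adjusted p 0.751). Without Liver 2, liver was below forebrain (log2 fold change -1.82, adjusted p = 0.000359) and rumen above liver (1.76, adjusted p = 0.000586).

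The 2 liver libraries disagreed for many members. Of the 26 members with a mean of at least 10 counts in liver, which include ITGAD and leave out ITGB6 and ITGB8, 14 differed more than 2-fold between Liver 1 and Liver 2, where 33.9% of all genes with that count did. In forebrain 2 of 23 did (ITGB2 and ITGB4), against 5.32% of all genes, and in rumen 0 of 23, against 7.94%. Higher in Liver 1 were ITGB1 (9.81-fold), ITGAV (7.97-fold), ITGA4 (6.50-fold), ITGAM (5.38-fold), ITGA6 (3.41-fold), ITGAL (2.87-fold), ITGB3 (2.62-fold) and ITGA2 (2.34-fold). Higher in Liver 2 were ITGA7 (4.87-fold), LAMB2 (3.32-fold), ITGA3 (3.06-fold), LAMB3 (2.80-fold), ITGA10 (2.64-fold) and ITGA2B (2.15-fold). LAMB1, LAMC1, ITGB5, ITGB4, NID1, NID2, ITGA5 and LAMA4 stayed within 1.24-fold of each other in the pair. The platelet chains ITGA2B and ITGB3 therefore fell on opposite sides. Some calls absent from the fit of all libraries used above appeared without 1 liver library. Besides those given with single genes in the other paragraphs or below, they appeared without Liver 2 for ITGA2 and ITGA6 in rumen against liver. In liver against forebrain they appeared without Liver 2 for ITGA3, ITGA6, ITGAV and ITGB1. Without Liver 1 they appeared for ITGA10 and ITGAV in rumen against liver. With all 6 libraries some of these calls appeared in other fits too. With DESeq2 they were ITGA6 (adjusted p = 0.0334) and ITGB1 in liver against forebrain and ITGA10 (adjusted p = 0.0400) in rumen against liver. With the replicate block it was ITGA6 in liver against forebrain (adjusted p = 0.0359).

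Marker lists differed between the liver libraries too. Summed levels were higher in Liver 1 by 9.90-fold for lymphocyte, 3.11-fold for granulocyte, 2.28-fold for PF4 and TUBB1, 2.21-fold for leukocyte, 2.20-fold for macrophage, 2.18-fold for endothelial, 2.79-fold for erythroid and 1.48-fold for hepatocyte markers, and higher in Liver 2 by 2.08-fold for basal epithelial markers, nearly all of it PERP. Pericyte markers were 1.99-fold higher in Liver 1, and fibroblast (1.27-fold), radial glia (1.21-fold), smooth muscle (1.07-fold) and neuronal markers (1.02-fold) less so. Within lists the size differed, at 14.5-fold for TUBB1 and 1.95-fold for PF4, and at 22.1-fold for CDH5 and 1.09-fold for TIE1. Some genes went the other way, with the hepatocyte genes TTR (1.23-fold) and APOA1 (1.28-fold) and the erythroid gene KLF1 (1.35-fold) higher in Liver 2. Their part in the spread of the integrins was not tested. For LAMB2 the direction of liver against forebrain depended on the pair, with a log2 fold change of -1.02 without Liver 2 (adjusted p = 0.00132), of 0.71 without Liver 1 (adjusted p = 0.00440) and of 0.10 with all libraries (adjusted p = 0.877).

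**Figure D5:**
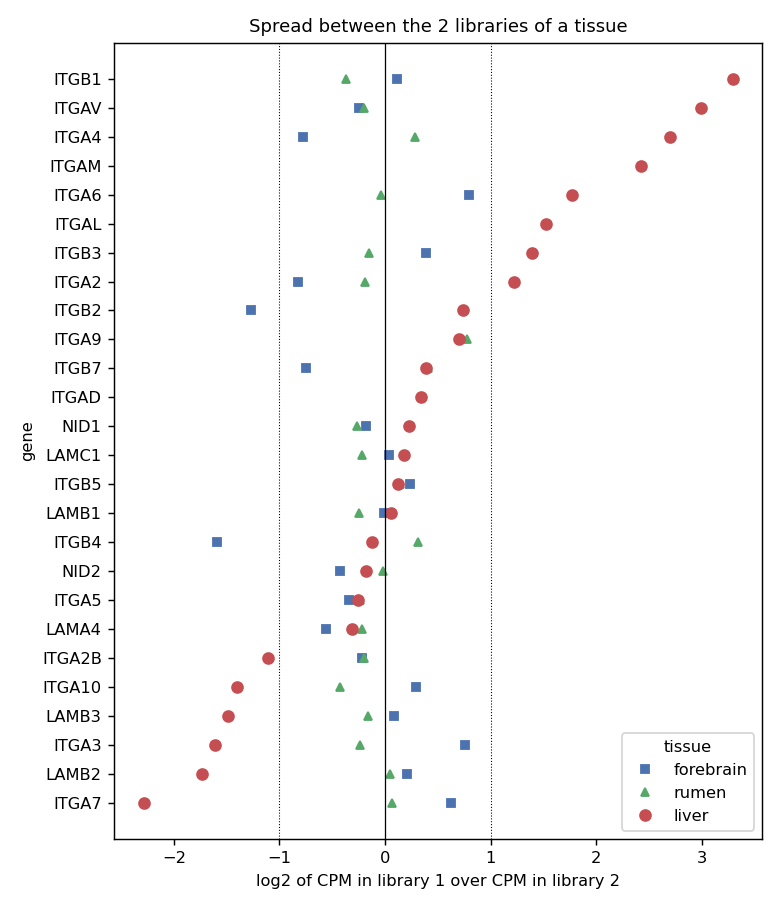
Log2 ratio of CPM in library 1 to CPM in library 2 of the same tissue for each gene with a mean of at least 10 counts and counts in both libraries, with dotted lines at 2-fold. Liver points spread from ITGA7, 4.87-fold higher in Liver 2, to ITGB1, 9.81-fold higher in Liver 1, while all rumen points stay within 2-fold.

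Partner genes of these receptors and matrix proteins were taken from a list of 74, of which 56 were in the table and 55 were tested. In rumen against forebrain 34 were higher and 2 lower, in rumen against liver 19 higher and 13 lower, and in liver against forebrain 31 higher and 6 lower. The shares of all tested genes, given above, were 20.3% and 21.5%, 21.2% and 21.8%, and 30.5% and 27.3%, and the 13 lower in rumen than in liver were a share near that of all genes. The median log2 fold changes of the partners were 2.34, 0.34 and 2.16, beside -0.01, -0.06 and 0.14 over all genes.

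All 5 tested hemidesmosome and tetraspanin partners were higher in rumen than in forebrain, against 20.3% of all genes. COL17A1, the hemidesmosome collagen that binds ITGB4, was at 0.244 and 0.361 CPM in forebrain, 36.5 and 37.5 CPM in liver, and 107 and 92.1 CPM in rumen, 317-fold above forebrain (adjusted p = 4.57e-05) and 2.69-fold above liver (adjusted p = 0.00173). Its rumen libraries were the highest, and those of liver lay between them and forebrain.

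The basement membrane partners were 8 higher and 2 lower of 12 tested in rumen against forebrain, against 20.3% and 21.5% of all genes. In rumen against liver 7 were higher and 0 lower, against 21.2% and 21.8% of all genes. COL15A1, a collagen of muscle and vessel basement membranes, was at 9.43 and 2.81 CPM in forebrain, 1.34 and 0 CPM in liver, and 130.5 and 165 CPM in rumen, 232-fold above liver (adjusted p = 0.000624). SGCD, a sarcoglycan of the muscle dystroglycan complex, had 71 counts in rumen and 3 in liver (ratio of pooled levels 26.5, exact 95% counting interval 8.72 to 132, adjusted p = 0.00313). Lower in rumen than in forebrain were NTN4, a netrin that binds laminin gamma chains, at 41.8 and 37.0 CPM in forebrain and 1.38 and 2.11 CPM in rumen (22.5-fold, adjusted p = 0.000315), and the sarcoglycan SGCB (5.51-fold, adjusted p = 0.000369). Both were lower in liver than in forebrain as well, NTN4 25.8-fold (adjusted p = 0.000142) and SGCB 46.5-fold (adjusted p = 2.14e-05).

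Of the 22 tested linkers between integrins and actin, 12 were higher and 0 lower in rumen against forebrain, against 20.3% and 21.5% of all genes. In rumen against liver 5 were higher and 7 lower, against 21.2% and 21.8% of all genes, and the 5 higher were a share near that of all genes. TNS4, a tensin of epithelia, had no counts in forebrain and was at least 23.2-fold higher in rumen (adjusted p = 0.0104). The kindlins, which switch integrins on, differed in profile, and were named after their values were seen. FERMT1, the epithelial kindlin, was at 110.4 and 104 CPM in rumen and at most 11.9 CPM elsewhere (12.3-fold above liver, adjusted p = 0.000584). FERMT3, the kindlin of blood cells, was at 255 and 127 CPM in liver and at most 6.12 CPM elsewhere (rumen 42.5-fold below liver, adjusted p = 0.000482). FERMT2, the widely expressed kindlin, was at 106 and 94.0 CPM in forebrain, 43.1 and 51.1 CPM in liver, and 179 ± 29.6 CPM (SD, n = 2) in rumen, 3.80-fold above liver in rumen (adjusted p = 0.000960) and 2.13-fold below forebrain in liver (adjusted p = 0.00650).

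Of the 16 tested ligands, 9 were higher and 0 lower in rumen against forebrain, where the shares of all genes were 20.3% and 21.5%. In rumen against liver 4 were higher, a share near the 21.2% of all genes, and 6 lower, against 21.8% of all genes. The plasma ligands VTN (vitronectin), FGG and FGA (fibrinogen chains) were the most different in liver. VTN stood at 2047 and 2043 CPM in liver, with 2 counts in forebrain and none in rumen, a difference between liver and rumen of at least 17643-fold (adjusted p = 2.99e-05). FGG was at 1939 and 1811 CPM in liver with no counts elsewhere, at least 16136-fold lower in rumen (adjusted p = 8.57e-05). FGA was 12504-fold lower in rumen (adjusted p = 6.21e-05), a fold that rests on 0 counts in Rumen 1 and 7 in Rumen 2. Against forebrain, liver was at least 30901-fold higher for FGA (adjusted p = 2.45e-05) and at least 16306-fold higher for FGG (adjusted p = 4.09e-05), and the ratio of pooled levels for VTN was 26744 (exact 95% counting interval 7403 to 220839, adjusted p = 1.40e-05). CDH1, the epithelial cadherin that integrin ITGAE binds, had 1 count in forebrain and 459 in rumen, a ratio of pooled levels of 464 with an exact 95% counting interval of 82.8 to 18360 (adjusted p = 0.00757). TNC, the tenascin bound by ITGA9, was at 93.0 and 70.7 CPM in forebrain, 6.77 and 5.01 CPM in liver, and 128 and 98.3 CPM in rumen, 19.2-fold above liver in rumen (adjusted p = 0.000159) and 13.9-fold below forebrain in liver (adjusted p = 0.000116).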

How the data were processed

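The deposited values are the authors' raw read counts per gene symbol, whole numbers in 1 column per library, and all 6 columns matched their labels. HISAT2 2.0.5, featureCounts 1.5.0-p3 and edgeR 3.18.1 are named in the submitters' processing notes. Per the labels' protocols, a NEBNext Ultra kit was used. Which build, gene annotation or strand setting was used is not given in the sources used here. Reads from genes that overlap, on either strand, therefore cannot be told apart.

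Tests on the counts used edgeR 4.0.16 (R 4.3.3), with filterByExpr (11478 genes kept of 14179), TMM scaling and a quasi-likelihood fit (legacy = FALSE) of a mean for each of the 3 tissues, without blocks, which leaves 3 residual degrees of freedom. Benjamini-Hochberg adjustment ran over all tested genes in each of 3 comparisons, and calls needed an adjusted p below 0.05. Folds are edgeR's log2 fold changes turned to linear values, and the standard error is the log2 fold change over the root of the F statistic. Alternatives, 15 in number, used RLE or upper quartile factors, DESeq2 1.42.0, limma 3.58.1 (voom), other filters, 2 tissues, a replicate block, edgeR's earlier method (added after the data were seen) and each library left out. If a tissue had no counts, the printed fold is a bound, set against 3 counts over its 2 libraries. It leaves out the counting error of the other tissue. Where it had 1 to 3, the ratio of pooled levels has an exact (Clopper-Pearson) interval, which covers counting error only. The scripts were tested on simulated data.

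The members and lists were chosen with earlier results of these data known. Every member is accounted for, in sets by role, and partner genes are named as the 3 called genes of largest fold change per direction and comparison, besides FN1 and the kindlins. Levels per transcript length and descriptions of sequence were not run, as no sequence was used here.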

Additional observations from a re-analysis of the deposited data

How the results depend on the processing

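Among called members, 11 of 18 in rumen against forebrain, 10 of 15 in rumen against liver and 9 of 18 in liver against forebrain stayed called in all 15 alternatives. With all 6 libraries in the fit, the number higher was 14 to 17, 10 and 15 to 19 in these comparisons, and the number lower was 1 to 2, 4 to 6 and 0 to 1. With only the 2 tissues compared, 19, 9 and 14 were higher and 2, 5 and 1 lower. The number lower in rumen than forebrain was 2 with RLE factors, with only those 2 tissues and with the replicate block, and the number lower in liver than forebrain was 0 with edgeR's earlier method. With 1 library left out, the number higher was 11 to 20 in rumen against forebrain, 7 to 13 in rumen against liver and 9 to 22 in liver against forebrain, and the number lower was 0 to 2, 3 to 9 and 0 to 4. Such fits have 2 residual degrees of freedom, and a tissue with 1 library is assumed to vary like the others.

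Directions reversed, as log2 fold changes, for LAMB2 in liver against forebrain, to -0.11 with limma voom, -0.017 with upper quartile factors and -0.022 with the replicate block. With 1 library left out, some values changed sign over their range. In rumen against liver these were ITGB1 (-2.07 to 1.22), ITGA2 (-1.04 to 0.19), ITGA7 (-0.52 to 1.76), ITGA9 (-0.20 to 0.63), ITGB8 (-3.62 to 5.89) and LAMB3 (-0.081 to 1.40). In rumen against forebrain they were ITGA4 (-0.080 to 0.70), ITGA7 (-0.31 to 0.31), ITGAL (-2.37 to 4.74) and ITGAM (-6.99 to 0, with no counts left). In liver against forebrain they were ITGA7 (-1.82 to 0.46), ITGAV (-1.05 to 1.92), ITGB1 (-0.27 to 3.02) and LAMB2 (-1.02 to 0.71). Of the values against the direction with all libraries, ITGB1 at 1.22 without Liver 1 and LAMB2 at -1.02 without Liver 2 passed the threshold. The causes were not tested.

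Same-numbered libraries did not deviate together from their tissue means, with correlations of -0.0885 (rumen and forebrain), 0.0172 (rumen and liver) and 0.0771 (liver and forebrain). With 2 libraries for each tissue, these values cannot show whether same-numbered libraries came from the same fetus. The numbers were not taken to pair samples because the labels do not say that they mark a fetus. With the replicate block 16, 10 and 18 members were higher and 2, 5 and 1 lower. Upper quartile factors moved the median of all genes by 0.15 in rumen against liver. Over all genes, rumen against forebrain gave 2329 higher and 2473 lower calls, and 3650 and 3733 with only those 2 tissues. Depth limited ITGAL, ITGAM, ITGAD, ITGB6, ITGB8 and rumen ITGB2, which rest on few counts.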

Other observations

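Ratios between receptor chains set the 2 liver libraries apart. The ratio of ITGA5 to ITGB1 counts was 0.195 and 0.267 in forebrain against 2.67 and 2.44 in rumen, and Liver 1, at 0.171, lay beside forebrain and Liver 2, at 2.01, beside rumen. The ratio of ITGA4 to ITGB7 was highest in liver (6.52 and 1.31), followed by forebrain (0.737 and 0.750) and rumen (0.0489 and 0.0534). RARG, a retinoic acid receptor gene next to ITGB7 in RefSeq gene order, had a mean of 2.80 ± 0.629 CPM in forebrain, 4.44 ± 1.19 CPM in liver and 79.6 ± 14.4 CPM in rumen (SD, n = 2 each), and ZNF740, on the other side, had 10.5 ± 0.685, 15.0 ± 2.10 and 6.98 ± 2.58 CPM. These neighbours were looked up after the ITGB7 values were seen, and whether reads of RARG were counted under ITGB7 was not tested.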
